A study of Mus musculus with 8 samples.

Results

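A set of 10 genes used to recognise precursor cells of fat tissue was followed in cultured mouse adipocytes in which 1 of 3 microRNAs had been blocked. They are Ly6a, Ly6c1, Thy1, Cd34, Cd24a, Pi16, Dpp4, Wisp2, Eng and Cd9, taken by symbol from the deposited tables, where each has 1 row among 18933 genes. The cells came from the stromal vascular fraction, the collagenase-released pellet of fat tissue that contains adipocyte precursors; the labels name no depot, strain or age, and the series title speaks of brown adipocytes. They were transfected when nearly confluent with a locked nucleic acid inhibitor of miR-182, miR-203 or miR-708 at 100 nM, or given a control transfection whose content the labels do not state. All groups went back to full medium after 8 h and then had 2 days of adipogenic induction by a cocktail that included rosiglitazone, insulin, dexamethasone and the phosphodiesterase inhibitor IBMX, and RNA was harvested at day 4. Each of the 4 groups had 2 samples, and the labels do not say whether these came from separate animals or cultures.

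Adipose precursors are sorted from the stromal vascular fraction by antigens on their surface rather than by a single defining gene. The antigens SCA1, CD34 and CD24 together enrich for cells that can form fat, and CD24 is lost as the cells commit. DPP4 and PI16 mark progenitors of the connective tissue around fat lobules, which lie upstream of committed preadipocytes, while high LY6C or CD9 marks subsets with inflammatory or matrix-forming features. Several of these antigens are shared with endothelial cells, leukocytes or nerve, so none of them identifies a precursor on its own.

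The values are FPKM, fragments counted relative to transcript length and library size. The tables hold 1 value per group, read here as the authors' pool of both samples. They have no replicate spread, and sequencing depth is unknown. A gene counts as called, that is risen or fallen, where its q-value in the authors' deposited table is below 0.05. The p-values behind these calls may measure technical spread only. In bulk RNA, more cells of a type and more RNA per cell cannot be told apart. The cultures carried adipocyte transcripts in every group: all 12 adipocyte genes of a marker list were above 1 FPKM, led by the fatty acid carrier Fabp4 at 37475 FPKM in the control.

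The inhibitors were directed at the following microRNAs, shown as RefSeq gives them on GRCm38.p6 because their seeds, bases 2 to 8 in capitals, decide which transcripts they can pair with. The labels do not name the arm, and the arm most often meant by each name is printed. The 3 seeds differ from one another.
mmu-miR-182-5p: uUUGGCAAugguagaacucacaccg
mmu-miR-203-3p: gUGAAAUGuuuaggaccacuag
mmu-miR-708-5p: aAGGAGCUuacaaucuagcuggg

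A search for matches to these seeds found 3 in the longest annotated 3' untranslated regions of the 10 genes (GENCODE M21), shown here because they are the only ones in the set, with the 7 matching bases in capitals and 10 bases on each side. Wisp2 holds 1 match to miR-182 at chr2:163832945-163832971 on the plus strand. Pi16 holds 1 match to miR-203 at chr17:29330113-29330139 on the plus strand. Dpp4 holds 1 match to miR-203 at chr2:62332502-62332528 on the minus strand.
Wisp2, miR-182 match: ttaagagcgtTTGCCAAgtccaggaac
Pi16, miR-203 match: cccgctgagcCATTTCAtgggcctgca
Dpp4, miR-203 match: tgcattgagaCATTTCAggctgctttc

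The letters TTGCCAA occurred in 5.51% of 1598 genes with a 3' region of like length to that of Wisp2 (within 20%). The letters CATTTCA occurred in 21.4% of 2180 genes of like length to Pi16 and in 27.3% of 1991 genes of like length to Dpp4. No gene of the 10 held AGCTCCT, the match to miR-708, and the other 7 genes held none of the 3 matches. A match is a description of letters and not a measured site.

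Most of these markers rose with every inhibitor. With the miR-182 inhibitor, the authors' deposited table called 7 of the 9 tested markers higher and 0 lower, where 8.4% of 14391 tested genes were called higher, 6.23% lower and 14.6% in either direction. With the miR-203 inhibitor, 7 of 9 were called higher and 0 lower, where the authors' deposited table has 4.72% of 14371 genes called higher, 2.51% lower and 7.23% in either direction. With the miR-708 inhibitor, 6 of 9 were called higher and 0 lower, where the authors' deposited table has 4.51% of 14316 genes called higher, 3.05% lower and 7.56% in either direction. Ly6a, Ly6c1, Thy1, Cd34, Pi16 and Wisp2 were called higher in all 3 tables, and Eng in those for miR-182 and miR-203. Cd24a and Cd9 were tested and not called in any, and Dpp4 was not tested in any. The 3 comparisons share 1 control, so these calls are not independent of one another.

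The median ratio of the 10 markers, on the scale log2((inhibitor FPKM + 1)/(control FPKM + 1)), was 0.86 for miR-182, 0.58 for miR-203 and 0.63 for miR-708. The median over all tested genes on that scale was -0.0094, -0.0077 and -0.0144. This scale understates the change of genes with low FPKM, and 4 of the 10 markers were below 1 FPKM in the control.

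**Figure D1:**
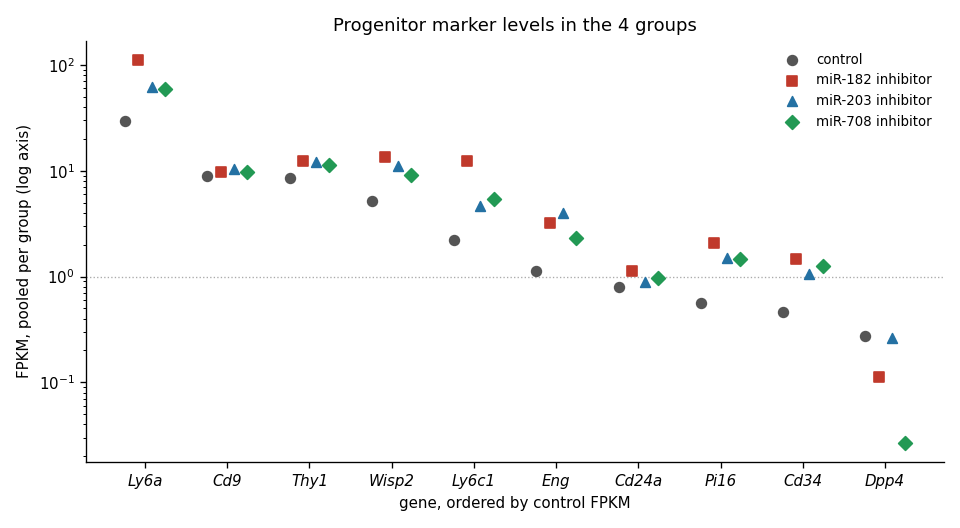
FPKM of the 10 progenitor markers (log axis), 1 point per group as pooled by the authors, ordered by control level; the dotted line is 1 FPKM. Ly6a was the highest marker in all 4 groups, from 29.1 FPKM in the control to 112 FPKM with the miR-182 inhibitor, and Dpp4 stayed at or below 0.273 FPKM.

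Ly6a and Ly6c1 encode small surface proteins held in the membrane by a lipid anchor, and both are known to be inducible by interferon in mouse cells. Ly6a, the SCA1 antigen (ENSMUSG00000075602, chromosome 15, 74994877 to 74998031, minus strand of GRCm38), stood at 29.1 FPKM in the control, 112 with the miR-182 inhibitor, 61.6 with the miR-203 inhibitor and 59.5 with the miR-708 inhibitor. All 3 inhibitor groups lay above the control, and the miR-182 group lay highest. The rises were 3.83-fold, 2.11-fold and 2.04-fold, each with q = 0.00176 in the authors' deposited table, which is the smallest q the tables hold. Of 1209 genes called higher with the miR-182 inhibitor in the authors' deposited table, 55 had a larger log2 fold change than Ly6a.

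Ly6c1, part of the LY6C antigen (ENSMUSG00000079018, chromosome 15, 75044018 to 75048830, minus strand), stood at 2.23 FPKM in the control, 12.2 with the miR-182 inhibitor, 4.59 with the miR-203 inhibitor and 5.44 with the miR-708 inhibitor. The order of the groups was thus the control lowest and miR-182 highest, as for Ly6a, with miR-708 here above miR-203. It rose 5.49-fold, 2.06-fold and 2.44-fold, each with q = 0.00176 in the authors' deposited table. The 5.49-fold rise was the largest of any marker in any comparison. Only 30 of the 1209 genes called higher for miR-182 in the authors' deposited table had a larger log2 fold change.

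Reads of these neighbours may have been divided between copies. The longest annotated transcripts of Ly6a and Ly6c1 were identical at 87.1% of 830 aligned bases and shared an exact run of 89 bases. Ly6c1 and Ly6c2 were identical at 97.6% of 822 aligned bases, with a run of 188 bases, and Ly6c2 was not analysed here. The Ly6c1 value is therefore uncertain as a measure of that gene alone.

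Within 250 kb of Ly6a, measured between lower coordinates, the tables hold 8 genes including Ly6a itself, and 4 of them were tested. Ly6e, a family member that also responds to interferon, lies at -39.8 kb and went from 17.8 FPKM in the control to 67.6, 37.5 and 40.4 FPKM with the miR-182, miR-203 and miR-708 inhibitors. It rose 3.80-fold, 2.11-fold and 2.27-fold by the calls of the authors' deposited table, close in size to Ly6a. Lynx1, a family member known as a modulator of nicotinic receptors, rose 1.48-fold with the miR-182 inhibitor and was not called with the other 2 in the authors' deposited table. The remaining 4 neighbours, Ly6d, Ly6k, Ly6i and 2010109I03Rik, were below 0.3 FPKM in every group and were not tested. Elsewhere in the family, Ly6h stood at 0.284 FPKM in the control and at 0.824, 0.802 and 0.997 FPKM with the miR-182, miR-203 and miR-708 inhibitors. It was called higher in the authors' deposited table for miR-708 and was tested and not called in the others. Lypd1, the other family member above 1 FPKM, stood at 3.93 FPKM in the control and at 8.02, 6.51 and 5.87 FPKM with the miR-182, miR-203 and miR-708 inhibitors, and was not called.

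**Figure D2:**
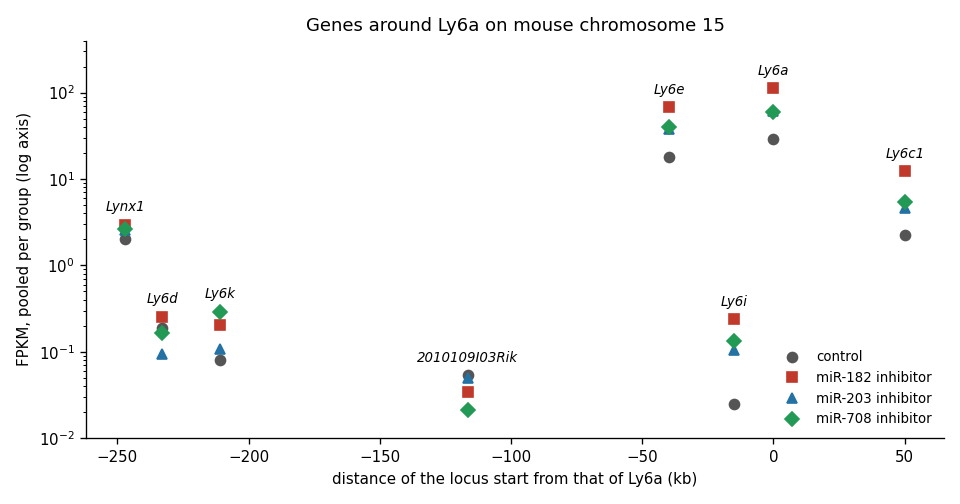
FPKM (log axis) of the 8 genes within 250 kb of Ly6a, plotted by the distance of their locus start from that of Ly6a in kb, 1 point per group. Ly6e, Ly6a and Ly6c1 lay above 2 FPKM in all groups with the miR-182 inhibitor highest, and Ly6d, Ly6k, Ly6i and 2010109I03Rik lay below 0.3 FPKM.

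Interferon-induced genes moved with the Ly6 genes. Of 17 listed genes, the authors' deposited tables called 13 of 16 tested higher for miR-182, 7 of 12 for miR-203 and 7 of 11 for miR-708, and none lower. The shares of all tested genes called higher were 8.4%, 4.72% and 4.51%. The summed level of the listed genes was 47.0 FPKM in the control and 210 FPKM (miR-182), 94.6 FPKM (miR-203) and 103 FPKM (miR-708) with the inhibitors. Isg15, a ubiquitin-like modifier, went from 1.13 FPKM to 14.9, 3.58 and 3.46 FPKM. Rtp4, a chaperone of membrane receptors, went from 0.261 FPKM to 8.13, 1.93 and 2.17 FPKM, and Oasl2, a relative of the oligoadenylate synthetases, from 0.247 FPKM to 7.53, 1.88 and 2.53 FPKM. The part of this group in the rise of Ly6a and Ly6c1 was not tested.

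Thy1, Cd34 and Cd24a encode the other sorting antigens of the stromal gate. Thy1, the CD90 glycoprotein of fibroblasts, neurons and T cells (ENSMUSG00000032011, chromosome 9, 44043384 to 44048579, plus strand), stood at 8.48 FPKM in the control and at 12.3, 12.1 and 11.3 FPKM with the miR-182, miR-203 and miR-708 inhibitors. The 3 inhibitor groups lay within 1.09-fold of one another and above the control. Its rises of 1.45-fold, 1.43-fold and 1.33-fold were the smallest called among the markers, with q = 0.00176, 0.00463 and 0.0310 in the authors' deposited table.

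Cd34, a surface sialomucin of stromal, endothelial and blood-forming cells (ENSMUSG00000016494, chromosome 1, 194938819 to 194961279, plus strand), was low, at 0.465 FPKM in the control and 1.45, 1.06 and 1.25 FPKM with the miR-182, miR-203 and miR-708 inhibitors. It crossed 1 FPKM with each inhibitor and not in the control. The rises were 3.12-fold, 2.27-fold and 2.70-fold, with q = 0.00176, 0.00706 and 0.00176 in the authors' deposited table. The authors' locus of Cd34 is also given to 2 other genes. Of these, mmu-mir-29b-2 stood at 0.564 FPKM in the control, above Cd34, and between 0.339 and 0.416 FPKM with the inhibitors. It was not called. AC162692.1 stayed at or below 0.103 FPKM and was not tested. Podxl2, a relative of Cd34, went from 1.67 FPKM to 3.37, 3.01 and 1.22 FPKM and was not called in any of the authors' deposited tables.

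Cd24a, a lipid-anchored sialoglycoprotein that is lost as fat precursors commit (ENSMUSG00000047139, chromosome 10, 43578284 to 43584265, plus strand), stood at 0.793 FPKM in the control and 1.13, 0.894 and 0.966 FPKM with the miR-182, miR-203 and miR-708 inhibitors. The ratios to control were 1.43, 1.13 and 1.22. None was called in the authors' deposited table, where q was 0.294, 0.921 and 0.734. A q above the threshold does not show that there was no difference.

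Pi16 and Dpp4 mark the interstitial progenitors. Pi16, a peptidase inhibitor at the cell surface (ENSMUSG00000024011, chromosome 17, 29317680 to 29330593, plus strand), stood at 0.562 FPKM in the control and 2.09, 1.49 and 1.45 FPKM with the miR-182, miR-203 and miR-708 inhibitors. It rose 3.72-fold, 2.64-fold and 2.58-fold, each with q = 0.00176 in the authors' deposited table. The 3' region of Pi16 holds a miR-203 match shown above, and the part of that match in its rise was not tested. The miR-203 and miR-708 groups differed by 1.02-fold in level, and the miR-182 group stood 1.41-fold and 1.44-fold above them, a difference that was not tested.

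Dpp4, a surface dipeptidyl peptidase that trims chemokines and incretins (ENSMUSG00000035000, chromosome 2, 62330073 to 62412231, minus strand), was the lowest marker in every group. Its level was 0.273 FPKM in the control, 0.112 with the miR-182 inhibitor, 0.264 with the miR-203 inhibitor and 0.0267 with the miR-708 inhibitor. It had p and q of 1 in the authors' deposited tables, taken as not tested, so no direction is given. Dpp4 thus gave no call beside Pi16, the other marker of the same cells. No other gene listed with the DPP4 family was called in any of the authors' deposited tables (6 tested). The most abundant, Prep, stood at 31.7 FPKM in the control and between 29.1 and 31.1 FPKM with the inhibitors. These 6 genes are too few to set against the 14.6%, 7.23% and 7.56% of all tested genes called in either direction.

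Genes listed as encoding substrates or binding partners of DPP4 were read as well, and whether each applies to the mouse protein was not tested. Of 7 tested genes, the authors' deposited tables called 4 higher for miR-182 (Cxcl12, Ccl11, Cxcl9 and Ada), the same 4 for miR-203 and 3 for miR-708 (without Ada), and none lower. Over all tested genes, 8.4%, 4.72% and 4.51% were called higher. Cxcl12, a stromal chemokine that retains CXCR4-bearing cells, went from 9.73 FPKM to 21.7, 19.4 and 18.7 FPKM. Ccl11, the eosinophil chemokine eotaxin, went from 0.633 FPKM to 2.25, 2.26 and 2.30 FPKM, nearly the same level with each inhibitor. Cxcl9, a chemokine known for induction by interferon gamma, went from 0.234 FPKM to 1.53, 0.528 and 0.652 FPKM.

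Wisp2, also called Ccn5, encodes a secreted matricellular protein made by mesenchymal precursors, and it acts on Wnt and BMP signalling in fat. It (ENSMUSG00000027656, chromosome 2, 163820861 to 163833146, plus strand) stood at 5.21 FPKM in the control and 13.6, 10.97 and 9.14 FPKM with the miR-182, miR-203 and miR-708 inhibitors. The 3 inhibitor groups all lay above the control, in the order miR-182, miR-203, miR-708. The rises were 2.61-fold, 2.11-fold and 1.76-fold, each with q = 0.00176 in the authors' deposited table. Wisp2 is the marker whose 3' region holds the miR-182 match shown above, and the part of that match in its rise was not tested. No other member of the CCN family was called in any of the authors' deposited tables (3 tested). Cyr61, a matrix-associated signalling protein and the most abundant of them, stood at 23.8 FPKM in the control and between 27.0 and 27.6 FPKM with the inhibitors. The 3 tested relatives are too few to set against the 14.6%, 7.23% and 7.56% of all tested genes called in either direction.

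Eng encodes endoglin, an accessory receptor for ligands of the transforming growth factor beta family on endothelial and mesenchymal cells. It (ENSMUSG00000026814, chromosome 2, 32646595 to 32682669, plus strand) stood at 1.13 FPKM in the control and 3.17, 4.02 and 2.31 FPKM with the miR-182, miR-203 and miR-708 inhibitors. Eng was the tested marker with the largest ratio for miR-203, at 3.55-fold, against 2.80-fold for miR-182 and 2.04-fold for miR-708. The authors' deposited table gave q = 0.0409 for miR-182, 0.0125 for miR-203 and 0.233 for miR-708, so the last was not called. Eng overlaps Fpgs on the opposite strand, and the authors' locus is given to Fpgs and Ak1 too. The library kit is directional, per the labels, but whether counting used strand is not stated there. Reads of Eng and Fpgs may not have been separated. Cd34, Pi16, Dpp4 and Cd9 also overlap annotated genes on the opposite strand, and the same limit holds for them. Fpgs stood at 13.9 FPKM in the control and Ak1 at 29.3 FPKM, both far above Eng, and neither was called in the authors' deposited tables.

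Receptors that work with endoglin rose in part. Of 15 tested genes of the endoglin receptor list apart from Eng, the authors' deposited tables called 3 higher and none lower in each comparison, the same 3 each time. Among all tested genes, 8.4% (miR-182), 4.72% (miR-203) and 4.51% (miR-708) were called higher. Tgfbr2, the type II receptor of transforming growth factor beta, went from 15.1 FPKM to 25.5, 21.4 and 21.1 FPKM. Tgfbr3, the co-receptor betaglycan, went from 32.2 FPKM to 51.6, 44.9 and 43.6 FPKM. Mmp14, a membrane protease that can shed endoglin, went from 27.9 FPKM to 57.4, 46.6 and 45.9 FPKM. Their ratios for miR-203, from 1.40 to 1.67, were below the 3.55 of Eng.

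Cd9 encodes a tetraspanin, one of the membrane proteins that organise integrins and other partners into microdomains. It (ENSMUSG00000030342, chromosome 6, 125460266 to 125494791, minus strand) stood at 8.96 FPKM in the control and 9.78, 10.3 and 9.74 FPKM with the miR-182, miR-203 and miR-708 inhibitors. The ratios were 1.09, 1.15 and 1.09, and q was 0.841, 0.592 and 0.855 in the authors' deposited table. Among the tested markers, the ratios of Cd9 for miR-182 and miR-708 were the closest to 1. For miR-203 the ratio of Cd24a, 1.13, was closer to 1. Its control level was above those of Thy1, Wisp2, Ly6c1 and Eng, which were called. Of 18 other tetraspanins tested, the authors' deposited table called Cd63 higher and Cd82 and Tspan18 lower for miR-182, and only Tspan18 lower for miR-203 and for miR-708. These counts lie near the shares of all tested genes called in either direction, 14.6%, 7.23% and 7.56%. Tspan18 went from 94.7 FPKM to 44.2, 62.5 and 59.3 FPKM. Among 6 tested partners of CD9, the prostaglandin receptor regulator Ptgfrn was the 1 called gene in each of the authors' deposited tables, from 3.86 FPKM to 8.56, 6.25 and 6.20 FPKM.

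**Figure D3:**
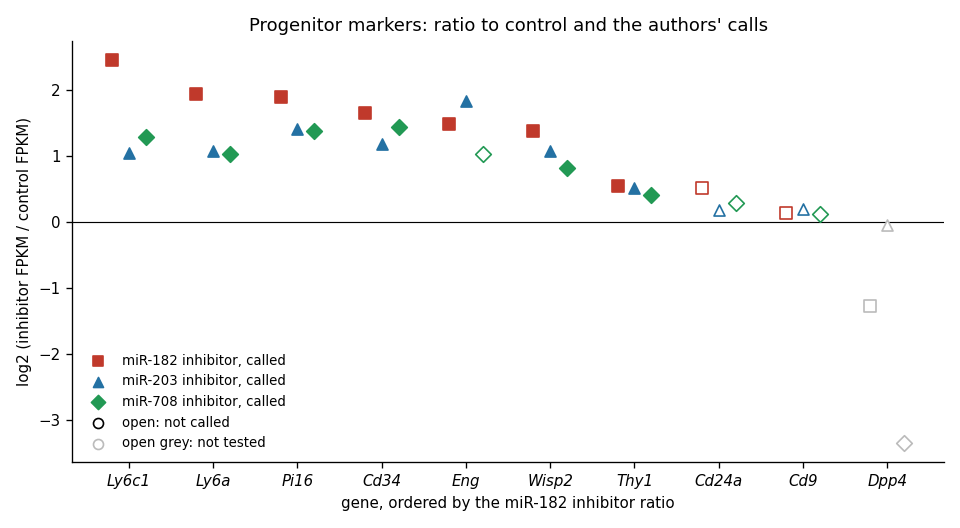
log2 of inhibitor FPKM over control FPKM for each marker, ordered by the miR-182 ratio; filled symbols are called higher in the authors' deposited tables, open coloured symbols were tested and not called, and open grey ones were not tested. Ly6c1 with the miR-182 inhibitor lay highest at 5.49-fold, and Cd9 lay between 1.09-fold and 1.15-fold with all 3 inhibitors.

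Levels of the markers were ordered alike in the groups at the top and bottom. In the control the order was Ly6a, Cd9, Thy1, Wisp2, Ly6c1, Eng, Cd24a, Pi16, Cd34 and Dpp4, with Cd9 and Thy1 within 1.06-fold of each other. With the miR-182 inhibitor Ly6a was 8.23-fold above the next marker, Wisp2, and Wisp2, Thy1 and Ly6c1 lay between 12.2 and 13.6 FPKM. Cd9, behind Ly6a alone in the control, came after all of these. Pi16 and Cd34 stood below Cd24a in the control and above it with each of the 3 inhibitors. Neighbours this close have no replicate spread to separate them.

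Between the inhibitors, the miR-182 group was highest for 7 markers and the miR-203 group for Eng, Cd9 and the untested Dpp4. Ly6c1 was 2.66-fold higher with the miR-182 inhibitor than with the miR-203 inhibitor and 2.25-fold higher than with the miR-708 inhibitor. For Ly6a these ratios were 1.81 and 1.88. Wisp2 was 1.24-fold and 1.48-fold higher with the miR-182 inhibitor, and Thy1 differed by 1.02-fold and 1.09-fold. Eng went the other way and was 1.27-fold higher with the miR-203 inhibitor than with the miR-182 inhibitor. No deposited table compares the inhibitors with each other, and these differences were not tested.

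Other genes of the same precursor states rose in part. The counts that follow stand beside 8.4%, 4.72% and 4.51% of all tested genes called higher with the miR-182, miR-203 and miR-708 inhibitors. Of 9 tested genes that accompany DPP4 and PI16 in interstitial progenitors, the authors' deposited tables called 5 higher for miR-182, 4 for miR-203 and 3 for miR-708, and none lower. The 3 with the largest called change are matrix genes: Dpt, dermatopontin, went from 22.9 FPKM to 70.1, 48.4 and 52.0 FPKM, and Fbn1, fibrillin, from 15.1 FPKM to 31.1, 25.0 and 23.9 FPKM. Mfap5, a protein of microfibrils, went from 21.1 FPKM to 39.0, 35.0 and 36.6 FPKM. Other tested genes of the list lay below the control with every inhibitor and were not called. They were Sema3c, at 5.19 FPKM in the control and 3.40, 3.66 and 3.64 FPKM, and Cd55, at 2.45 FPKM and 2.07, 2.05 and 2.02 FPKM. Of the 16 listed genes with a row, 7, among them Wnt2, Bmp7 and Dact2, were not tested in any comparison, as was the case for Dpp4.

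Of 14 tested genes of committed preadipocytes, 6 rose with the miR-182 inhibitor and 5 with each of the others in the authors' deposited tables, and none fell. For this list and the next, the shares of all tested genes called higher were 8.4%, 4.72% and 4.51%. Ggt5, a gamma-glutamyltransferase, went from 1.68 FPKM to 4.66, 2.99 and 3.13 FPKM. Icam1, low and at a locus shared with other genes, went from 0.408 FPKM to 1.34, 0.920 and 0.808 FPKM. It was called higher in all 3 of the authors' deposited tables and had the largest miR-182 ratio of the list, 3.27-fold. Dlk1, a membrane protein that holds back adipocyte differentiation, and Pdgfra, a growth factor receptor of precursors, rose 1.90-fold each with the miR-182 inhibitor by the same table. Pparg and Fabp4 of that list were not called in any of the authors' deposited tables. The list shares Pparg, Fabp4, Lpl and Cebpa with the adipocyte list below. Cebpa, called higher for miR-182, is counted in both. Stromal genes that accompany the CD142 antigen (F3) were called higher in the authors' deposited tables for 4 of 8 tested (miR-182), 2 of 7 (miR-203) and 4 of 8 (miR-708). On the scale with a pseudocount of 1 FPKM, the largest called change was that of Fmo2, a flavin monooxygenase. Fmo2 stood at 6.44 FPKM in the control and at 11.9, 11.4 and 10.3 FPKM. Meox2, below 1 FPKM in every group, had a larger ratio for miR-182, 2.57-fold, and was called higher for miR-182 and miR-708. F3 itself stood at 54.1 FPKM in the control and between 56.9 and 60.5 FPKM with the inhibitors and was not called.

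A list of 20 further stromal surface antigens had calls in both directions. The authors' deposited tables called 8 higher and 3 lower for miR-182 (20 tested), 6 and 1 for miR-203 (19 tested), and 5 and 1 for miR-708 (20 tested). In either direction, 14.6%, 7.23% and 7.56% of all tested genes were called. Alcam, the adhesion molecule CD166 that is used as a stromal marker like THY1 and endoglin, fell in all 3 tables, from 9.71 FPKM to 3.13, 4.41 and 4.64 FPKM. Pdpn, podoplanin of fibroblastic and lymphatic cells, rose in all 3, from 2.23 FPKM to 5.19, 6.15 and 4.41 FPKM, and like Eng it was highest with the miR-203 inhibitor. Cd200, an immune inhibitory ligand, went from 0.133 FPKM to 1.60, 0.266 and 0.881 FPKM with the miR-182, miR-203 and miR-708 inhibitors. In the authors' deposited tables it was called higher for miR-182, not tested for miR-203 and not called for miR-708. Among others of the list, Vcam1, Mcam and Cd248 were called higher in all 3 of the authors' deposited tables, and Anpep for miR-203 and miR-708. Nt5e was called lower for miR-182. Itgb1 (CD29), Cd44 and Cd81 were not called in any of the authors' deposited tables. Cd63 and Cd82, counted here for miR-182, were also counted among the tetraspanins above.

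**Figure D4:**
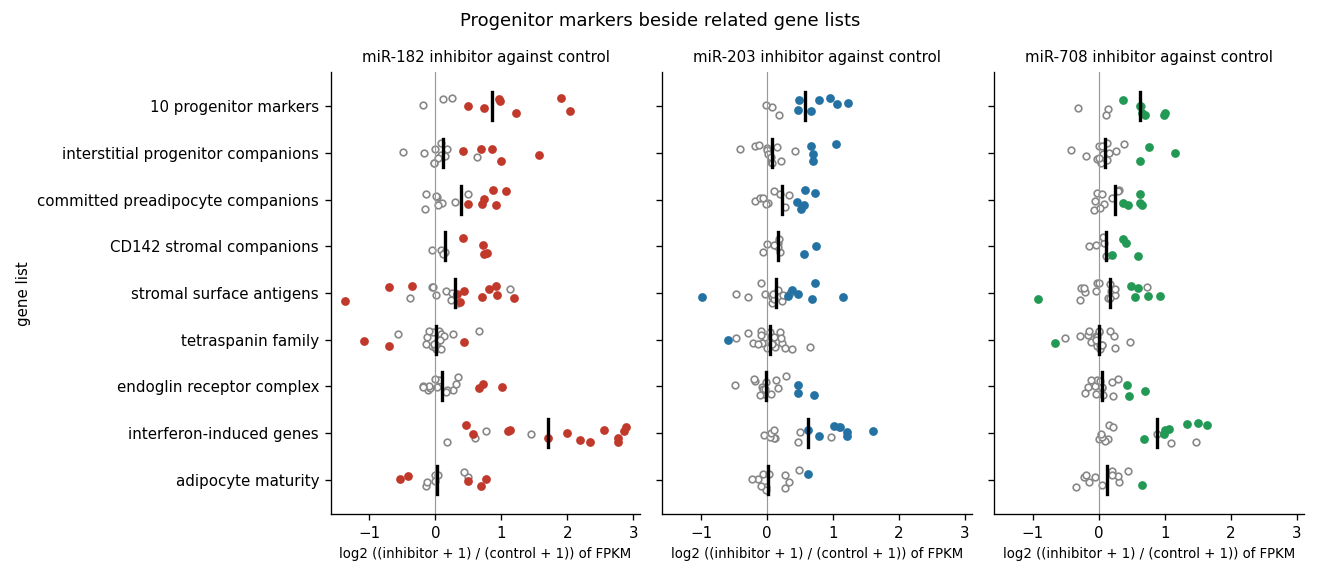
log2((inhibitor FPKM + 1)/(control FPKM + 1)) for every gene with a row in 9 lists, 1 panel per inhibitor; filled points are called in the authors' deposited tables, open points are not called or not tested, and bars are medians. The 10 progenitor markers have medians of 0.86, 0.58 and 0.63, and the 12 adipocyte genes medians of 0.017, 0.0074 and 0.12.

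Adipocyte genes showed no common direction beside the progenitor markers. Of 12 tested, the authors' deposited tables called 3 higher (Adipoq, Cfd and Cebpa) and 2 lower (Slc2a4 and Dgat2) for miR-182, and only Cfd, the protease adipsin, higher for miR-203 and miR-708. The shares of all tested genes called in either direction were 14.6%, 7.23% and 7.56%. Adipoq, the hormone adiponectin, went from 1178 FPKM to 1904, 1644 and 1601 FPKM, and Dgat2, an enzyme of triglyceride synthesis, from 152 FPKM to 104, 129 and 119 FPKM.

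Markers of other cells that carry some of these antigens were read in the same tables. Of 10 endothelial markers, 9 were below 1 FPKM in the control, and Egfl7 at 22.6 FPKM made up most of their sum of 25.3 FPKM. That sum was 33.7 FPKM with the miR-182 inhibitor, 24.7 with the miR-203 inhibitor and 27.8 with the miR-708 inhibitor. Kdr, the main endothelial growth factor receptor, stayed at or below 0.0844 FPKM. Of 5 tested for miR-182, the authors' deposited table called Cdh5 (0.334 to 0.627 FPKM) and Flt1 (0.876 to 1.56 FPKM) higher. Of 4 tested for each of the others, it called none for miR-203 and Pecam1 (0.318 to 0.839 FPKM) higher for miR-708. The shares of all tested genes called higher were 8.4%, 4.72% and 4.51%. The part of endothelial RNA in the rises of Cd34 and Eng was not tested.

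Of 10 leukocyte markers, 6 had a row, with a summed level of 7.62 FPKM in the control and 4.58, 6.86 and 5.57 FPKM with the inhibitors, and the lysozyme gene Lyz2 was called lower for miR-182 in the authors' deposited table (3.32 to 1.46 FPKM). Of 7 mesothelial markers, 3 had a row, with sums of 5.76 FPKM in the control and 9.14, 7.60 and 8.21 FPKM, and the keratin Krt19 was called higher for miR-182. Smooth muscle and pericyte markers summed to between 27.5 and 30.7 FPKM in all groups, with Mylk higher and Cspg4 lower in each of the authors' deposited tables. Myh11, the smooth muscle myosin, was called higher for miR-182 in the authors' deposited table (0.267 to 0.455 FPKM). Glial and neuronal markers summed to between 12.5 and 14.9 FPKM and none was called, with S100b the highest at 9.48 FPKM in the control. Skeletal muscle markers summed to between 6.95 and 8.48 FPKM, with Des lower in each of the authors' deposited tables and Myl1 higher for miR-203 and miR-708. Of 5 listed lymphocyte markers, 0 had a row, and their levels were not analysed here. For miR-182 the tested genes were 2 leukocyte, 1 mesothelial, 4 smooth muscle and pericyte, 4 glial and neuronal and 3 skeletal muscle markers. The numbers were the same for miR-203 and miR-708, except for 3 smooth muscle and pericyte markers. Over all tested genes, 14.6%, 7.23% and 7.56% were called in either direction, and lists this short cannot be set against these shares. What the cells of these lists contributed to the marker levels was not tested.

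Genes with the most similar profile were sought for 3 markers, by the Euclidean distance between the 4 group levels, each divided by their mean, among 13155 genes that reached 1 FPKM in some group. For Ly6a the nearest were Gbp2 (distance 0.0729), Psmb9 (0.0763) and Lgals9 (0.0778). For Pi16 they were Clca1 (0.0349), Mndal (0.0392) and 4930568K20Rik (0.0449). For Wisp2 they were Fstl1 (0.0455), Aebp1 (0.0493) and H2-T22 (0.0619). With only 4 points per profile, these distances are a description of the 4 groups.

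RefSeq promoters, 250 bases before to 50 bases after the start, were available for 6 of the 10 genes (Cd34, Eng, Dpp4, Cd9, Ly6c1 and Pi16). The interferon response element, searched on both strands, was found in that of Dpp4 alone, beside 3.44% of 32841 promoters of the same length. The gamma-activated site, TTCNNNGAA, was found in none of the 6, beside 8.3% of all promoters. That Ly6c1 holds neither says only that the letters searched are not in this window.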

How the data were processed

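Messenger RNA of 8 samples in 4 groups, named by their titles, was sequenced. The submitters' processing notes name TopHat2 2.0.9, Cuffdiff 2.1.1 and the build mm10. Annotation, options and strand handling are unknown: not given in the sources used here. FPKM were deposited by the authors as 1 value per group in 3 tables of 18933 genes, with a p-value, a q-value and a log2 fold change of each inhibitor over the control, per the file headers. The deposited log2 values were checked against the FPKM and lay within 0.01 of their log2 ratio for at least 18929 genes. Genes with p and q of 1 were taken as not tested. Depth is unknown, and pooled values allow no SD, interval or test across samples.

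Ratios, log2 ratios with a pseudocount of 1 FPKM, counts and medians were computed with pandas 2.3.3 and numpy 2.4.6. The Benjamini-Hochberg code was tested on simulated data. The 23 symbols that had become dates were restored by gene ID. Listed genes were matched by symbol, or by gene ID where a symbol had changed. Coordinates are GENCODE M21 on GRCm38, which is mm10. The members, the lists and the rule for named genes (of each list the 3 largest called changes on the log2 scale with pseudocount, or the most abundant gene where none was called) were chosen with earlier results of these data known, and list members named besides were chosen after their values were seen.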

Additional observations from a re-analysis of the deposited data

How the results depend on the processing

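The count of markers called higher was 7 (miR-182), 7 (miR-203) and 6 (miR-708) of 9, and no alternative moved it by more than 1.5 times or called a marker lower. It ran from 5 to 7, 5 to 7 and 4 to 6 under a q below 0.01, an adjustment over the tested genes of each table, FPKM of at least 1 in the control or in either group, and a fold of at least 1.5. At a q below 0.01 Eng dropped out for miR-182 and miR-203 and Thy1 for miR-708. Leaving out Cd34 and Eng, whose loci are shared, a choice made after the data were seen, left 5, 5 and 5. A pseudocount of 0.1 FPKM raised the median log2 ratio to 1.39 for miR-182 and 1.02 for miR-203, since a smaller pseudocount shrinks low genes less, and to 0.88 for miR-708. Other scaling kept the medians within 1.5 times. Of 90 log2 ratios of single markers under an alternative, 89 kept their sign, the exception being the untested Dpp4 for miR-203. No paired analysis was possible because the tables hold 1 pooled value per group, and leaving out replicates was not run for the same reason. Unknown depth limits what can be said of the markers below 1 FPKM.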
